A study of Homo sapiens with 6 samples.

Results

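The ATR inhibitor AZ20 was compared with its solvent DMSO in RPE-1 cells at 6 h of release from a thymidine block, when cells are labelled as being in G2. The comparison took 5 of the 17 libraries of the read-count table, chosen by the condition that each column names, and ran across all features of the table. The inhibitor group, 6h_ATRi, had 2 libraries, from experiments A and B. The solvent group, 6h_DMSO, had 3 libraries, from experiments A, B and C. No inhibitor library of experiment C at 6 h was among the 17. All libraries come from RPE-1, a line grown from human retinal pigment epithelium and made immortal with telomerase. Thymidine at 2 mM for 24 h had stopped both groups at the start of S phase, and 3 washes let them go. AZ20 at 2 µM or DMSO was added 1 h later, so cells collected at 6 h had been in either agent for 5 h. The study also had cells treated in the same way for 3 h and collected at 4 h, in late S phase (4h_ATRi and 4h_DMSO), arrested cells and asynchronously cycling cells. Its design text asks which genes ATR controls through transcription.

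ATR is a checkpoint kinase that is switched on at stalled or stressed replication forks. With its effector CHEK1 it keeps CDC25 phosphatases in check and so holds back CDK1, the kinase that drives cells into mitosis. In G2, FOXM1 and the MuvB complex bind CHR elements in promoters and switch on the genes of the spindle, the kinetochore and cytokinesis, many of which share a CCAAT box beside the CHR element. A separate circuit that comes up below is sterol supply: SREBP factors switch on cholesterol synthesis unless INSIG proteins hold them in the endoplasmic reticulum.

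Total counts were 1920816 and 1793661 in 6h_ATRi and 2180968, 1947778 and 1784999 in 6h_DMSO, within the range of 1758747 to 2357561 over the 17 libraries. Levels are given as CPM after edgeR's normalisation factors. Of 60252 features, 13510 passed the filter on low counts. Of these, 7017 (51.9%) have an exon that an exon on the opposite strand overlaps, and such features took 78.0% of the counts of the 5 libraries. The library kit keeps strand, but the strand setting of the counting is not given in the sources used here, so reads of a gene and of its opposite-strand partner cannot be told apart. Each overlapped feature is named with its partner and is uncertain as to the gene. A called feature may hold reads of the gene opposite to it, and a gene's own row may hold few of its reads. Where values are given below for a gene itself, its own row is meant. Which strand was counted was not tested. BEST1, an epithelial channel gene whose exon overlaps the ferritin gene FTH1, had 11100 to 14500 CPM in 6h_ATRi and 11400 to 14000 CPM in 6h_DMSO. Of 17 pigment epithelium markers, 3 were at 0 in all 5 libraries (RPE65, DCT and TTR). RLBP1, TYR, TYRP1, OTX2, RDH5, LRAT and MERTK were also low, at no more than 4.52 CPM in any of the 5 libraries. PMEL, which overlaps CDK2, had 344 to 445 CPM in 6h_ATRi and 266 to 358 CPM in 6h_DMSO. SERPINF1 had 22.6 to 27.4 CPM in 6h_ATRi and 12.1 to 25.6 CPM in 6h_DMSO, and MITF 1.62 to 3.36 and 2.74 to 8.39 CPM. The epithelial keratin KRT18, which overlaps KRT8, had 218 to 288 CPM in 6h_ATRi and 207 to 345 CPM in 6h_DMSO. Of 16 marker genes of other cell types, 8 were at 0 in all 5 libraries, and the 16 summed to 8.62 to 14.6 CPM in 6h_ATRi and 4.66 to 10 CPM in 6h_DMSO, ranges that overlap. The experiments are called independent and nothing more is said of their cultures, so p-values measure the spread between these libraries.

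After 5 h of inhibitor, 15 of the 55 features that were higher with a replicate block were mitotic genes or lay opposite to one. These are 15 of 220 such features measured, beside 55 of all 13510 features (0.407%). By fold change, AC114947.2 and IDI2-AS1, opposite to sterol genes, were among the 4 largest rises above 20 CPM. With edgeR's quasi-likelihood test and no replicate block, 1 feature was higher in 6h_ATRi (0.0074% of 13510) and 0 were lower (0.0%) at an adjusted p under 0.05. Unadjusted p-values under 0.05 went with 358 higher and 290 lower features, and DESeq2 called 17 higher and 2 lower. Libraries that share an experiment deviated together, and with the experiment as a replicate block edgeR called 55 features higher (0.407%) and 17 lower (0.126%). DESeq2 with the block called 51 higher and 17 lower. The features described below as higher, lower, risen or fallen are these 72 calls with the block. All 72 went the same way in pair A and in pair B. In 55 of the 55 higher features and 14 of the 17 lower ones the groups did not overlap, where 9.9% of all features had both 6h_ATRi libraries above every 6h_DMSO library and 9.07% had both below. Values of the same libraries chose the 72 features, so these counts are a description and not further support.

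The 72 calls rest on 2 inhibitor libraries. Without library A of 6h_ATRi the block fit called 20 higher and 4 lower, and without library B it called 19 higher and 2 lower. In these fits the lone inhibitor library is assumed to vary like the other conditions. Without 6h_DMSO libraries A, B or C in turn it called 35, 32 and 37 higher and 10, 5 and 14 lower. All 72 features kept their direction without either inhibitor library. Both pairs of each had gone the same way, so this could hardly have turned out otherwise and adds no support. Of the 72 calls, 12 held in all 5 of these fits, and each of the 12 was a rise. Of the 72 features, 61 have an opposite-strand exon, 37 are antisense or other long noncoding RNAs and 31 are coding genes. An opposite feature was itself measured for 54 of them, and 46 had more counts, not scaled for length, than every such partner. The partner had the same sign in 47 of 54 and was itself called the same way in 4.

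**Figure D1:**
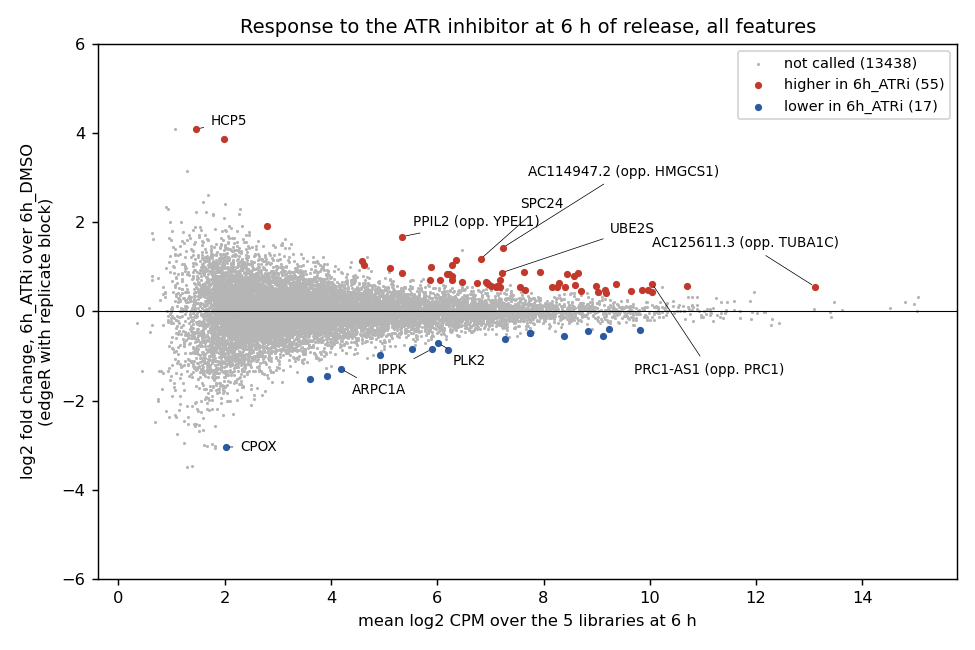
Log2 fold change of 6h_ATRi over 6h_DMSO (edgeR with the replicate block, vertical axis) against the mean log2 CPM of the 5 libraries (horizontal axis) for all 13510 features. Red points are the 55 features called higher, blue points the 17 called lower and grey points all others, and "opp." names the gene on the opposite strand.

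**Figure D2:**
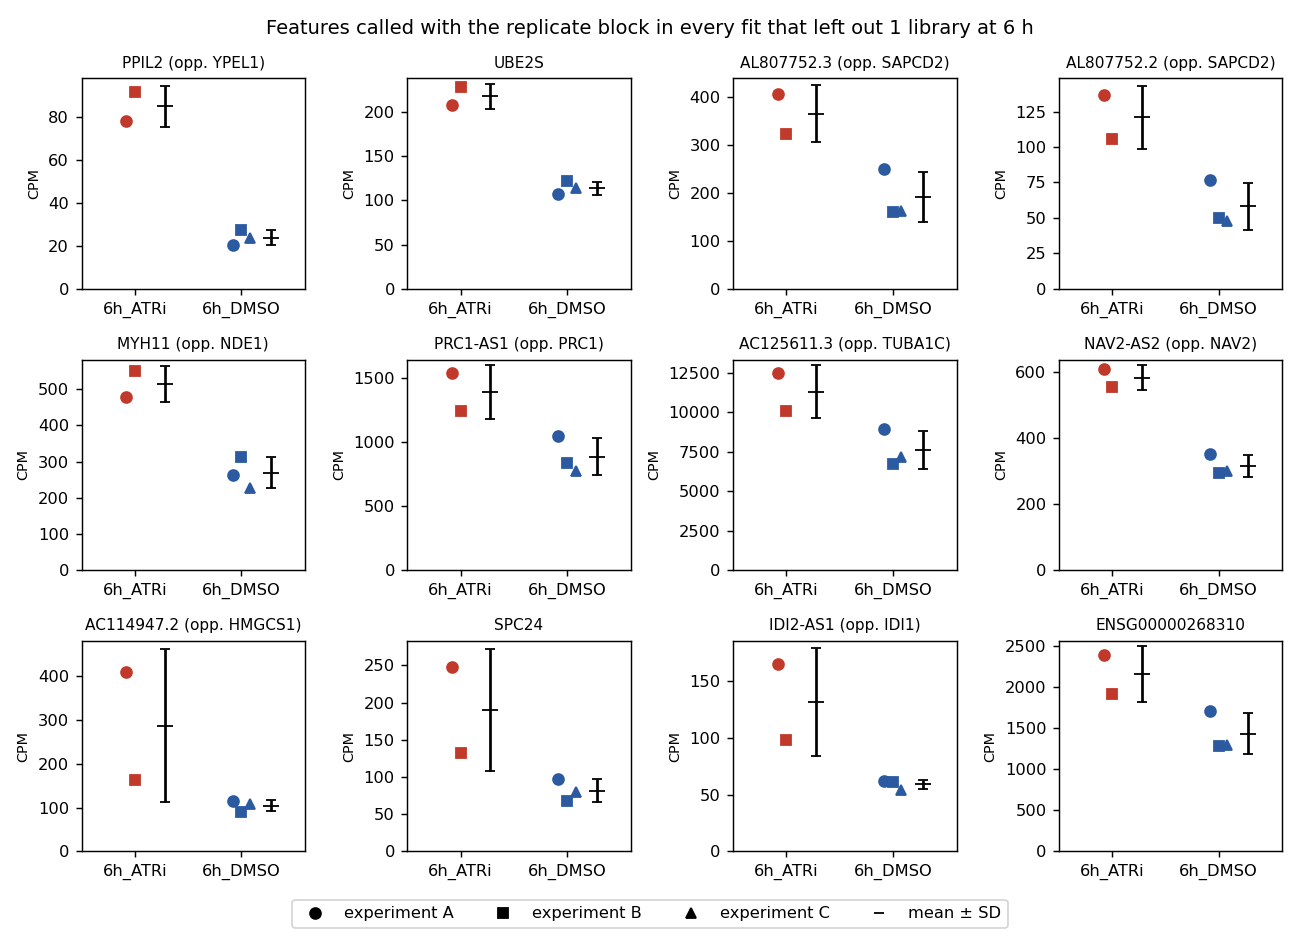
CPM of each library (vertical axes, starting at 0) in 6h_ATRi and 6h_DMSO for the 12 features whose call held in every fit that left out 1 library. Symbols mark the experiment and black bars the mean ± SD (n = 2 and n = 3), and in every panel both 6h_ATRi points lie above all 6h_DMSO points.

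Among mitotic genes, UBE2S was the clearest rise on a feature with no opposite exon. UBE2S is the E2 enzyme that lengthens ubiquitin chains for the anaphase-promoting complex. It had 208 and 228 CPM in 6h_ATRi A and B, against 107, 122 and 114 CPM in 6h_DMSO A, B and C. Both inhibitor libraries lay above every DMSO library by a wide gap. The log2 fold change was 0.87 ± 0.14 (SE) with the block, adjusted p = 5.42e-06, and 0.94 ± 0.17 without it, adjusted p = 0.0734. The highest adjusted p with the block and 1 library left out was 0.0123, without 6h_ATRi B.

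CENPF, a kinetochore protein and a standard G2 marker, had 151 and 170 CPM in 6h_ATRi and 113, 90.4 and 97.0 CPM in 6h_DMSO. Pair B moved more (0.90) than pair A (0.41 on the log2 scale). The log2 fold change was 0.67 ± 0.15 with the block, adjusted p = 0.00663, but 0.479 without the block and 0.338 with the block and without 6h_ATRi B. CEP55, a midbody protein of abscission, had 45.4 and 52.8 CPM in 6h_ATRi and 25.2, 22.6 and 31.8 CPM in 6h_DMSO, a log2 fold change of 0.98 ± 0.24 with the block (adjusted p = 0.0224, and 0.592 without 6h_ATRi B). NCAPD2, a condensin subunit that overlaps MRPL51, had 351 and 382 CPM in 6h_ATRi and 254, 251 and 227 CPM in 6h_DMSO, a log2 fold change of 0.54 ± 0.12 with the block (adjusted p = 0.00778, and 0.371 without 6h_ATRi B). In each of these 3 genes the groups did not overlap, and the call was lost without the block and without 6h_ATRi B.

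At other mitotic genes the called feature was the one on the opposite strand. The list members in question are 9 genes, which were singled out after their values were seen. At SAPCD2, a spindle-orientation gene, AL807752.3 had 408 and 324 CPM in 6h_ATRi and 251, 160 and 162 CPM in 6h_DMSO, a log2 fold change of 0.89 ± 0.13 (adjusted p = 2.36e-07). AL807752.2 over the same gene had 137 and 106 CPM in 6h_ATRi and 76.9, 49.7 and 47.7 CPM in 6h_DMSO, a log2 fold change of 1.03 ± 0.18 (adjusted p = 3.33e-05). SAPCD2 itself held far fewer counts, at 19.6 and 30.2 CPM in 6h_ATRi and 14.9, 21.1 and 18.6 CPM in 6h_DMSO, and its groups overlapped.

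The smooth muscle myosin gene MYH11 lies opposite to NDE1, a dynein regulator of the spindle. MYH11 had 480 and 550 CPM in 6h_ATRi and 264, 314 and 228 CPM in 6h_DMSO, a log2 fold change of 0.84 ± 0.12 (adjusted p = 3.31e-07). PRC1-AS1, opposite to the midzone bundling protein PRC1, had 1540 and 1240 CPM in 6h_ATRi and 1050, 835 and 773 CPM in 6h_DMSO, a log2 fold change of 0.63 ± 0.10 (adjusted p = 4.21e-06). Both calls, like those of the SAPCD2 features, held in every fit that left out 1 library, and none passed without the block, where the adjusted p was 0.443 for MYH11, 0.601 for PRC1-AS1, 0.137 for AL807752.3 and 0.172 for AL807752.2.

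AC008870.3 lies opposite to PLK1, the polo kinase of mitotic entry. It had 1010 and 735 CPM in 6h_ATRi and 719, 471 and 475 CPM in 6h_DMSO. In experiment A both levels were the highest of their group, so library B with inhibitor lay just above library A with DMSO. The log2 fold change was 0.60 ± 0.11 with the block (adjusted p = 6.01e-04, and 0.116 without 6h_ATRi A). PLK1 itself had 38.6 and 28 CPM in 6h_ATRi and 24.7, 17.1 and 20.8 CPM in 6h_DMSO, and its log2 fold change of 0.59 ± 0.28 had an adjusted p of 0.563.

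The remaining called features of this kind were CLCC1 opposite to the spindle-orientation gene GPSM2, AL138789.1 opposite to DEPDC1, HMMR-AS1 opposite to the spindle protein HMMR, AC002563.1 opposite to the cytokinesis kinase CIT and MFSD12 opposite to HMG20B, TEKTIP1, AC005786.3 and FZR1, an activator of the anaphase-promoting complex. Their log2 fold changes with the block were 0.58 for CLCC1, 0.56 for AL138789.1, 0.54 for HMMR-AS1, 0.70 for AC002563.1 and 0.64 for MFSD12. CLCC1 had 714 and 619 CPM in 6h_ATRi and 497, 391 and 385 CPM in 6h_DMSO, an adjusted p of 9.03e-04, and 0.0979 without 6h_ATRi A. The other calls were also lost when a library was left out, with a highest adjusted p of 0.257 for AL138789.1 and 0.127 for MFSD12 without 6h_ATRi B, and of 0.590 for HMMR-AS1 and 0.136 for AC002563.1 without 6h_ATRi A. GPSM2 itself had 236 and 228 CPM in 6h_ATRi and 268, 241 and 246 CPM in 6h_DMSO, so its log2 fold change, -0.09 with an adjusted p of 0.931, had the other sign. The rows of NDE1 and FZR1 did not rise with their opposite features either. NDE1 averaged 12.4 CPM in 6h_ATRi and 13.3 CPM in 6h_DMSO, and FZR1 31.7 CPM in both groups. Their log2 fold changes with the block were -0.04 and -0.05. Whether the rows of GPSM2, NDE1 and FZR1 hold these genes' own reads was not tested, so no lack of response of the genes follows. SAPCD2, PRC1, PLK1, DEPDC1, HMMR and CIT had positive log2 fold changes with the block, and none of them was called. SPC24, a subunit of the NDC80 complex at the kinetochore, is the fifth called member of the mitotic lists. It has an opposite-strand exon and is uncertain as to the gene. SPC24 had 248 and 132 CPM in 6h_ATRi and 97.4, 67.8 and 80.5 CPM in 6h_DMSO, without overlap and with library A highest in each group. The log2 fold change was 1.18 ± 0.15 with the block (adjusted p = 1.51e-09) and its adjusted p was 0.115 without the block, and the call held in every left-out fit, with a highest adjusted p of 0.00612 without 6h_ATRi A.

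The promoters of 5 of these genes are shown as examples in which the called feature lies opposite to the gene and the letters of a CHR element and a CCAAT box each stand once before the start. HMMR, where both motifs occur more than once, meets the first condition and is not printed. Each is the 150 bases before the annotated start, 5′ to 3′ on the strand of the gene, from RefSeq's GRCh38.p14 table. They lie at chr16:23678739-23678888 (plus strand) for PLK1, chr15:90994536-90994685 (minus) for PRC1, chr1:108876835-108876984 (plus) for GPSM2, chr9:137070558-137070707 (minus) for SAPCD2 and chr1:68497083-68497232 (minus) for DEPDC1. Capitals mark the CHR letters TTTGAA and the CCAAT box, either on the strand shown or as their reverse complements TTCAAA and ATTGG.
PLK1: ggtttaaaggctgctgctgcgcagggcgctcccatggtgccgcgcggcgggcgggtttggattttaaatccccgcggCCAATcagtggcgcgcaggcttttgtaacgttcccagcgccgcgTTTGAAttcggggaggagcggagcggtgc
PRC1: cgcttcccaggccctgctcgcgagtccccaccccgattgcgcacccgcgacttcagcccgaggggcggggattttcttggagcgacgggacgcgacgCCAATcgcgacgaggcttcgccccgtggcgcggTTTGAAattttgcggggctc
GPSM2: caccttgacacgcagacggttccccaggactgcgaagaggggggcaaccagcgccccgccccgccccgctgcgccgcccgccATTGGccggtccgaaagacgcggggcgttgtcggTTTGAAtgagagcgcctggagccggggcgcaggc
SAPCD2: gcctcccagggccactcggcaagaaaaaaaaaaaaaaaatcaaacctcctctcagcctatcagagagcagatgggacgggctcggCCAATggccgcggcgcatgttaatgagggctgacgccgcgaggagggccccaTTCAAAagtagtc
DEPDC1: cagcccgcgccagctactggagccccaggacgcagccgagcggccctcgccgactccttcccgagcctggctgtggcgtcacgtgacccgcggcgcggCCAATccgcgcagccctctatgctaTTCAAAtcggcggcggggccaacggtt

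The first base of the CHR letters stood 29 bases before the start in PLK1, 20 in PRC1, 34 in GPSM2, 13 in SAPCD2 and 27 in DEPDC1, and the CCAAT letters stood 73, 53, 68, 65 and 52 bases before it. Searched on both strands, CHR letters were found in 7.33% of the same 150 bases of all 35116 promoter windows, CCAAT letters in 23.5% and both in 1.94%. Over 186 windows of the mitotic lists the shares were 24.7%, 48.9% and 19.4%. Of the 14 mitotic genes that carry or lie opposite to a call, 8 held both (CEP55, NCAPD2 and HMMR beside the 5 shown), while UBE2S and FZR1 held neither in this window and CENPF, CIT, NDE1 and SPC24 held only CCAAT letters. A match of letters is a description of these windows and not of binding.

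Over the 8 mitotic lists, 148 of 160 members were measured, and 5 (3.38%) were higher and 0 lower with the block, beside 0.407% and 0.126% of all features. Without the block 0 were called in either direction, unadjusted p-values under 0.05 went with 23 higher and 1 lower member, and DESeq2 called 3 higher. The median log2 fold change of the members was 0.27 without the block, against 0.01 over all features, and 103 of 148 (69.6%) were positive, against 51.3% of all features. Of 72 measured features opposite to members, 10 (13.9%) were higher and 0 lower with the block, with a median of 0.26. Left-out fits with the block called 2 to 5 members higher and 5 to 9 opposite features. Fewer cells in G2 or mitosis in one group and less RNA per cell cannot be told apart in bulk libraries.

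The groups within these lists differed in their medians. Kinesins and spindle genes had a median of 0.37 (34 measured, 28 positive), cytokinesis genes 0.31 (16, 13 positive), condensin, cohesin and topoisomerase genes 0.29 (18, 13 positive), the CDK1 switch 0.28 (19, 15 positive) and kinetochore and checkpoint genes 0.24 (30, 19 positive). The anaphase-promoting complex had a median of -0.04 and the FOXM1 and MuvB factors, the regulators themselves, a median of -0.12. KIF20A, a kinesin of cytokinesis that overlaps CDC23 and BRD8, came nearest to the threshold of those not called, with 43.1 and 52.8 CPM in 6h_ATRi and 30.8, 26.6 and 20.8 CPM in 6h_DMSO and an adjusted p of 0.0674 with the block.

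The rows of central genes of mitotic entry did not pass. CCNB1, the cyclin of CDK1, had 11.2 and 18.3 CPM in 6h_ATRi and 9.32, 8.04 and 7.67 CPM in 6h_DMSO (log2 fold change 0.73 ± 0.41 and adjusted p = 0.687 with the block). CDK1 had 12.3 and 14 CPM in 6h_ATRi and 15.8, 7.03 and 12.1 CPM in 6h_DMSO, with overlapping groups. AURKA, the Aurora A kinase, had 15.1 and 18.9 CPM in 6h_ATRi and 5.13, 5.02 and 11.5 CPM in 6h_DMSO, a log2 fold change of 1.29 ± 0.42 that missed the threshold (adjusted p = 0.182). Each library held 10 to 35 counts of these 3 genes, and their SE of 0.39 to 0.42 exceeded that of UBE2S and CENPF. Rows this low, with the counted strand unknown, do not show that these genes failed to respond. FOXM1, which overlaps ITFG2, had 50.9 and 68.4 CPM in 6h_ATRi and 45.2, 37.7 and 46.0 CPM in 6h_DMSO (0.52 ± 0.20, adjusted p = 0.378), and TOP2A, the topoisomerase of chromosome condensation, had 148 and 153 CPM in 6h_ATRi and 120, 88.9 and 101 CPM in 6h_DMSO (0.50 ± 0.15, adjusted p = 0.142).

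**Figure D3:**
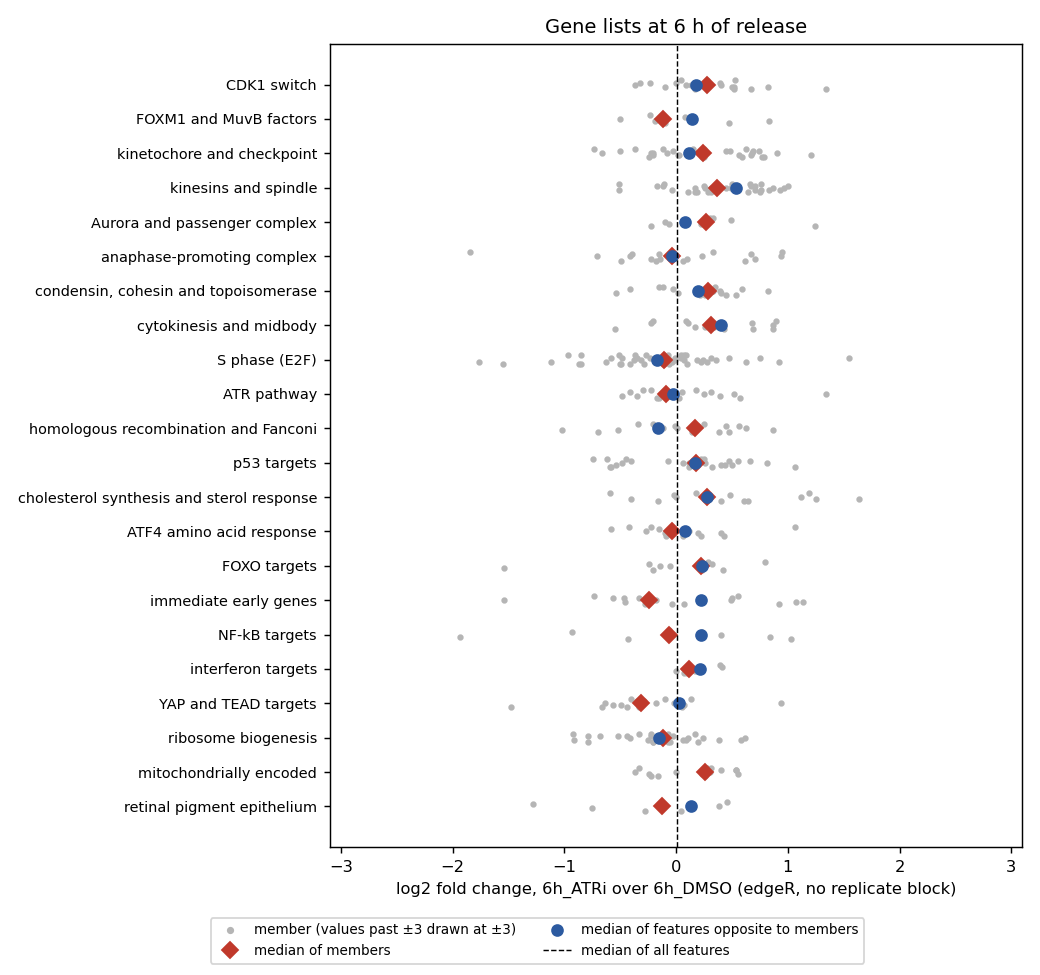
Log2 fold change of 6h_ATRi over 6h_DMSO (edgeR without the replicate block, horizontal axis) for the measured members of each list (grey points), with the median of the members (red), the median of the features opposite to them (blue) and the median of all features (dashed, 0.01). Kinesins and spindle genes have the highest medians of the mitotic lists, at 0.37 for members and 0.54 for opposite features, and YAP and TEAD targets have the lowest member median, -0.31.

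Of 14 measured features opposite to sterol genes, 3 (21.4%) were higher and 1 (7.14%) lower with the block. The shares over all features were 0.407% and 0.126%. The 3 were AC114947.2, IDI2-AS1 and SPC24, which is also counted above as a mitotic gene. AC114947.2 lies opposite to HMGCS1, which makes the HMG-CoA of cholesterol synthesis. It had 409 and 163 CPM in 6h_ATRi and 114, 89.9 and 109 CPM in 6h_DMSO. Pair A rose by 1.84 on the log2 scale and pair B by 0.85, so the inhibitor libraries differed from each other more than the DMSO libraries did. The log2 fold change was 1.43 ± 0.14 with the block, adjusted p = 1.14e-14, and the adjusted p was 0.741 without the block. HMGCS1 itself had 8.96 and 3.77 CPM in 6h_ATRi and 4.19, 2.51 and 5.48 CPM in 6h_DMSO, and its groups overlapped.

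IDI2-AS1, opposite to IDI1 and IDI2, the isopentenyl diphosphate isomerases of the same pathway, had 165 and 98.1 CPM in 6h_ATRi and 62.0, 61.3 and 54.2 CPM in 6h_DMSO, a log2 fold change of 1.15 ± 0.16 (adjusted p = 1.49e-07, and 0.0882 without the block). Library A with inhibitor stood highest, as at AC114947.2, and the groups did not overlap. Both calls held in every left-out fit, with highest adjusted p-values of 1.22e-04 for AC114947.2 and 0.0276 for IDI2-AS1, each without 6h_ATRi A.

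INSIG1, the sterol sensor that holds SREBP back and is itself an SREBP target, has no opposite exon. It had 20.7 and 12.9 CPM in 6h_ATRi and 6.06, 4.52 and 5.48 CPM in 6h_DMSO, or 37 and 24 counts against 13, 9 and 10. Its groups did not overlap, but its log2 fold change of 1.51 ± 0.43 with the block did not pass (adjusted p = 0.0778). SQLE, squalene epoxidase, had 10.6 and 8.62 CPM in 6h_ATRi and 4.66, 3.52 and 3.84 CPM in 6h_DMSO, and LSS, lanosterol synthase, which overlaps AP001469.1 and AP001468.1, had 10.6 and 8.62 CPM in 6h_ATRi and 3.26, 5.02 and 4.93 CPM in 6h_DMSO. Neither passed (adjusted p = 0.550 for SQLE and 0.541 for LSS).

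Of 27 sterol genes 18 were measured, and 0 were called in either direction, with or without the block, by edgeR or DESeq2. At an unadjusted p under 0.05, 3 were higher and 0 lower in edgeR both with the block and without it. Their median log2 fold change was 0.28 and 14 of 18 were positive. Among features opposite to members, STARD4-AS1 was lower. It lies opposite to the sterol transporter STARD4 and to NREP, and had 560 and 408 CPM in 6h_ATRi and 692, 569 and 878 CPM in 6h_DMSO (log2 fold change -0.40 ± 0.11, adjusted p = 0.0411, and 0.689 without 6h_ATRi B).

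PPIL2, a cyclophilin-type ubiquitin ligase gene on chromosome 22 that overlaps YPEL1, was the single feature called without the block. PPIL2 had 78.4 and 91.6 CPM in 6h_ATRi and 20.5, 27.6 and 23.6 CPM in 6h_DMSO. The lowest inhibitor library was far above the highest DMSO library, and the pairs moved alike, by 1.88 in A and 1.69 in B on the log2 scale. The log2 fold change was 1.83 ± 0.26 without the block (adjusted p = 0.00261) and 1.68 ± 0.21 with it (adjusted p = 1.51e-09). YPEL1, a gene of the yippee family, had 103 and 110 CPM in 6h_ATRi and 84.4, 85.9 and 92.6 CPM in 6h_DMSO, without overlap but also without a call (0.30 ± 0.16, adjusted p = 0.646).

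Other rises were named after their values were seen, for having held in every left-out fit or for sharing a locus. NAV2-AS2, opposite to the neuron navigator gene NAV2, had 610 and 557 CPM in 6h_ATRi and 353, 294 and 300 CPM in 6h_DMSO (log2 fold change 0.87 ± 0.11, adjusted p = 6.42e-09). NAV2-AS1, over the same gene, was also higher, by 0.80 ± 0.15 (adjusted p = 0.00292, and 0.227 without 6h_ATRi B). The highest level of any call was that of AC125611.3, opposite to the α-tubulin gene TUBA1C, with 12500 and 10100 CPM in 6h_ATRi and 8950, 6690 and 7160 CPM in 6h_DMSO (0.55 ± 0.09, adjusted p = 2.11e-06).

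Tubulin genes are near-identical copies, so their counts are uncertain for that reason too. TUBA1C itself, which overlaps TUBA1A as well, was higher by 0.47 ± 0.10 (adjusted p = 0.00548), and FAM166A, opposite to the β-tubulin gene TUBB4B, by 0.43 ± 0.10 (adjusted p = 0.00937). Opposite to SUN2, a nuclear envelope protein of the LINC complex, 3 features were higher: GTPBP1 by 0.59, AL021707.3 by 0.70 and AL021707.1 by 0.57 on the log2 scale. The linker histone gene H1-10 was higher by 0.56, and H1-10-AS1, opposite to it and to NUP210P3, by 0.49. Without 6h_ATRi A the adjusted p was 0.749 for TUBA1C, 0.451 for AL021707.3, 0.636 for AL021707.1, 0.573 for H1-10 and 0.249 for H1-10-AS1, and without 6h_ATRi B it was 0.371 for FAM166A and 0.226 for GTPBP1. ENSG00000268310, an ID that the annotation used here does not hold, had 2390 and 1910 CPM in 6h_ATRi and 1710, 1280 and 1290 CPM in 6h_DMSO (0.57 ± 0.10, adjusted p = 3.74e-05). These loci contribute several features each, so the 72 calls are not 72 separate genes.

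The largest fold changes belonged to features with few counts. HCP5, a long noncoding RNA of the HLA region, had 10 and 19 counts in 6h_ATRi and 1, 1 and 0 counts in 6h_DMSO (adjusted p = 0.0174), AC139491.5 had 18 and 27 counts against 3, 1 and 1 (adjusted p = 0.00453), and PROZ, protein Z of coagulation, had 18 and 33 counts against 8, 10 and 3 (adjusted p = 0.0459). The groups did not overlap, but none of the 3 calls held in all left-out fits, and without 6h_ATRi B the adjusted p was 0.526 for HCP5, 0.373 for AC139491.5 and 0.536 for PROZ. The other named rises were TBPL1 opposite to SLC2A12 (1.14, adjusted p = 0.00326), CYREN opposite to TMEM140 and AC083862.2 (1.05, adjusted p = 0.0344), FAM168A opposite to AP000763.3 (0.99, adjusted p = 0.00161) and CYP1B1-AS1 opposite to the cytochrome gene CYP1B1 and to AC009229.4 (0.88, adjusted p = 0.00168). Each of these 4 lost its call when a library was left out, with highest adjusted p-values of 0.284, 0.515 and 0.348 for TBPL1, CYREN and CYP1B1-AS1 without 6h_ATRi B and 0.219 for FAM168A without 6h_ATRi A.

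Fewer features fell, and none of the 17 calls held in every left-out fit. PLK2, a polo-like kinase that p53 induces, was the 1 list member that fell. It had 54.9 and 39.9 CPM in 6h_ATRi and 85.3, 61.3 and 90.4 CPM in 6h_DMSO. The groups did not overlap, with the lowest DMSO library, B, just above the highest inhibitor library, A. The log2 fold change was -0.71 ± 0.19 with the block (adjusted p = 0.0450, and 0.702 without 6h_ATRi B).

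IPPK, an inositol phosphate kinase gene opposite to the centromere gene CENPP, had 47.6 and 36.1 CPM in 6h_ATRi and 85.3, 69.3 and 67.9 CPM in 6h_DMSO (-0.84 ± 0.18, adjusted p = 0.00421, and 0.332 without 6h_ATRi B). ARPC1A, a subunit of the actin-nucleating Arp2/3 complex, had 8.96 and 11.3 CPM in 6h_ATRi and 25.6, 20.6 and 27.4 CPM in 6h_DMSO (-1.29 ± 0.33, adjusted p = 0.0316). CPOX, an enzyme of haem synthesis, had 3 and 0 counts in 6h_ATRi and 17, 15 and 8 counts in 6h_DMSO, with an adjusted p of 0.0330. The groups did not overlap in these 3 features either. Without 6h_ATRi A the adjusted p was 0.557 for ARPC1A, and without 6h_ATRi B it was 0.667 for CPOX.

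The other named falls were AC109446.3 opposite to XYLT1 (-0.87), DAAM2-AS1 opposite to DAAM2 (-0.84), Z94160.2 opposite to ELFN2 (-0.97), GFOD1-AS1 (-1.51), the filaggrin gene FLG (-1.46) and MIR137HG, the host transcript of a microRNA (-0.62 on the log2 scale). FLG had 4.48 and 13.5 CPM in 6h_ATRi and 11.7, 37.7 and 19.7 CPM in 6h_DMSO, so its groups overlapped while both pairs were lower. Without 6h_ATRi A or B the adjusted p of these 6 rose to between 0.511 and 0.698. MIR137HG overlapped too, with 146 and 80.3 CPM in 6h_ATRi and 195, 145 and 264 CPM in 6h_DMSO.

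S-phase and checkpoint genes gave no call. Of 51 measured S phase genes 0 passed with or without the block or in DESeq2, and 2 had an unadjusted p under 0.05 with the block, both lower. The median log2 fold change was -0.11 and 17 were positive. MCM2, a subunit of the replicative helicase that overlaps TPRA1, had 4.48 and 7.01 CPM in 6h_ATRi and 14.4, 8.04 and 15.3 CPM in 6h_DMSO (adjusted p = 0.306 with the block), E2F1 had 1.68 and 0.539 CPM in 6h_ATRi and 3.26, 3.52 and 3.29 CPM in 6h_DMSO (adjusted p = 0.674), and RRM2, the ribonucleotide reductase subunit, had overlapping groups of 23.2 to 32.5 CPM in 6h_ATRi and 15.1 to 32.6 CPM in 6h_DMSO. Of 19 genes of the ATR pathway 0 passed, 0 had an unadjusted p under 0.05 with the block, and the median was -0.09. ATR itself, which overlaps EIF2AK1P1, had 3.92 and 2.69 CPM in 6h_ATRi and 1.40, 1.51 and 3.84 CPM in 6h_DMSO, CHEK1 had 3.92 and 7.01 CPM in 6h_ATRi and 6.99, 5.02 and 5.48 CPM in 6h_DMSO, and WEE1, the kinase that inhibits CDK1, had 20.2 and 22.6 CPM in 6h_ATRi and 17.2, 13.1 and 18.6 CPM in 6h_DMSO. Among 25 p53 targets PLK2 was lower, 0 were higher and the median was 0.18. CDKN1A, the CDK inhibitor p21, ranged from 33.6 to 49.6 CPM in 6h_ATRi and from 17.7 to 47.2 CPM in 6h_DMSO.

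YAP and TEAD targets had the lowest median of the lists, -0.31 over 21 measured members, of which 5 were positive. None passed in either direction with the block, and at an unadjusted p under 0.05 there were 0 higher and 2 lower both with the block and without it. CCN1, a matrix protein, had 61.0 and 47.4 CPM in 6h_ATRi and 70.8, 85.9 and 101 CPM in 6h_DMSO (-0.61 ± 0.19, adjusted p = 0.149). ANKRD1 had 106 and 143 CPM in 6h_ATRi and 214, 184 and 184 CPM in 6h_DMSO (-0.57 ± 0.17, adjusted p = 0.185, although it passed in 1 of the 5 left-out fits), while CCN2, which overlaps AL133346.1, had overlapping groups of 97.0 to 99.1 CPM in 6h_ATRi and 79.7 to 111 CPM in 6h_DMSO. Ribosome biogenesis genes had a median of -0.12 over 29 members with 0 called and 6 lower at an unadjusted p under 0.05 with the block, and FBL, the nucleolar methyltransferase, had 14 and 11.9 CPM in 6h_ATRi and 21.0, 23.1 and 23.0 CPM in 6h_DMSO (adjusted p = 0.474). Among immediate early genes KLF6 came nearest, with 9.52 and 5.93 CPM in 6h_ATRi and 24.7, 17.6 and 25.2 CPM in 6h_DMSO (-1.43 ± 0.39, adjusted p = 0.0571). No member was called with the block in the lists of homologous recombination and Fanconi genes, the ATF4 amino acid response, FOXO, NF-kB and interferon targets, or mitochondrially encoded genes.

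The response at 6 h was then set beside that at 4 h, after 3 h of the same dose. The responses share no library but share the experiments. With the block, 4h_ATRi against 4h_DMSO gave 162 features higher (1.2% of 13510) and 75 lower (0.555%). Of the 55 features higher at 6 h, 39 were also higher at 4 h, which is 70.9% of the rises at 6 h and 24.1% of those at 4 h. Of the 17 lower at 6 h, 3 were lower at 4 h, 17.6% of the falls at 6 h and 4.0% of those at 4 h. No feature was called with opposite signs. The median log2 fold change of the 55 was 0.67 at 6 h and 0.59 at 4 h, and that of the 17 was -0.71 at 6 h and -0.34 at 4 h. The 6 h values chose these features, so the medians are a description.

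A direct test of the difference between the responses called 0 features (0.0%) with edgeR and no block, with 401 at an unadjusted p under 0.05, and 0 with DESeq2. With the block it called 6 (0.0444%), all with a smaller log2 fold change at 6 h than at 4 h. They were DIS3 opposite to the Aurora A cofactor BORA, AC106820.5 opposite to the cyclin F gene CCNF, AC008870.3 opposite to PLK1, CLCC1 opposite to GPSM2, AC005339.1 opposite to TNFAIP8L1, and TWIST1, a transcription factor gene that overlaps AC003986.2. DIS3 averaged 349 ± 55.2 CPM in 6h_ATRi and 331 ± 66.6 CPM in 6h_DMSO, against 391 ± 73.5 CPM in 4h_ATRi and 181 ± 49.3 CPM in 4h_DMSO (SD, n = 2 in 6h_ATRi and 3 in the others). Its DMSO level at 6 h lay near the inhibitor level at 4 h. AC008870.3 averaged 873 ± 196 CPM in 6h_ATRi and 555 ± 142 CPM in 6h_DMSO, against 571 ± 87.3 CPM in 4h_ATRi and 212 ± 56.3 CPM in 4h_DMSO, and CLCC1 averaged 666 ± 67.2 CPM in 6h_ATRi and 424 ± 63.2 CPM in 6h_DMSO, against 421 ± 81.9 CPM in 4h_ATRi and 172 ± 39.3 CPM in 4h_DMSO. In both, 4h_ATRi lay within 20 CPM of 6h_DMSO. The count of such features ran from 2, without 6h_DMSO A, to 7, without 4h_ATRi C.

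Sterol-linked features and NAV2-AS2 had larger responses at 6 h, but the difference did not pass. For AC114947.2 the 6 h minus 4 h difference was 0.69 ± 0.19 (adjusted p = 0.287 with the block), for IDI2-AS1 0.77 ± 0.22 (adjusted p = 0.298) and for NAV2-AS2 0.54 ± 0.16 (adjusted p = 0.298). For SPC24 it was -0.05 ± 0.20, for PPIL2 -0.05 ± 0.29 and for UBE2S 0.11 ± 0.19, with an adjusted p of 0.987 or more for each.

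**Figure D4:**
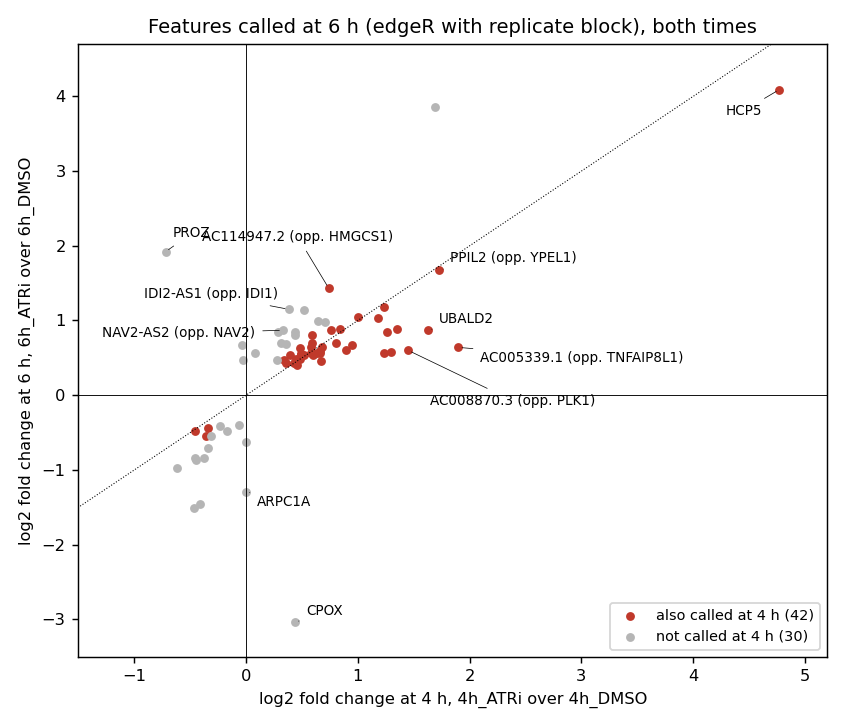
Log2 fold change at 6 h (vertical axis) against that at 4 h (horizontal axis) for the 72 features called at 6 h, from edgeR with the replicate block. Red points (42) were also called at 4 h and grey points (30) were not, and the dotted line marks equal responses.

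Across all 6 conditions, AL807752.3, AC008870.3 and CLCC1, each opposite to a mitotic gene, were lowest in arrested cells and highest in 6h_ATRi. AL807752.3, opposite to SAPCD2, averaged 65.6 ± 3.59 CPM in arrested cells, 191 ± 35.0 in 4h_ATRi, 74.7 ± 9.70 in 4h_DMSO, 366 ± 59.2 in 6h_ATRi, 191 ± 52.1 in 6h_DMSO and 214 ± 14.1 in cycling cells (SD, n = 2 in 6h_ATRi and 3 elsewhere). UBE2S followed the same order at its ends, with 218 ± 13.9 CPM in 6h_ATRi and 47.8 ± 8.28 in arrested cells, and its 4h_ATRi level of 146 ± 15.3 exceeded that of cycling cells, 118 ± 13.5. PPIL2 averaged 73.8 ± 21.2 CPM in 4h_ATRi and 85.0 ± 9.36 in 6h_ATRi, above every other condition. Arrested cells, at 39.6 ± 8.86 CPM, lay above 4h_DMSO (22.1 ± 5.11), 6h_DMSO (23.9 ± 3.57) and cycling cells (17.5 ± 4.53). AC114947.2, opposite to HMGCS1, averaged 147 ± 43.7 CPM in 4h_ATRi and 286 ± 174 in 6h_ATRi, against averages of 79.3 to 104 CPM in the 4 conditions without inhibitor.

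**Figure D5:**
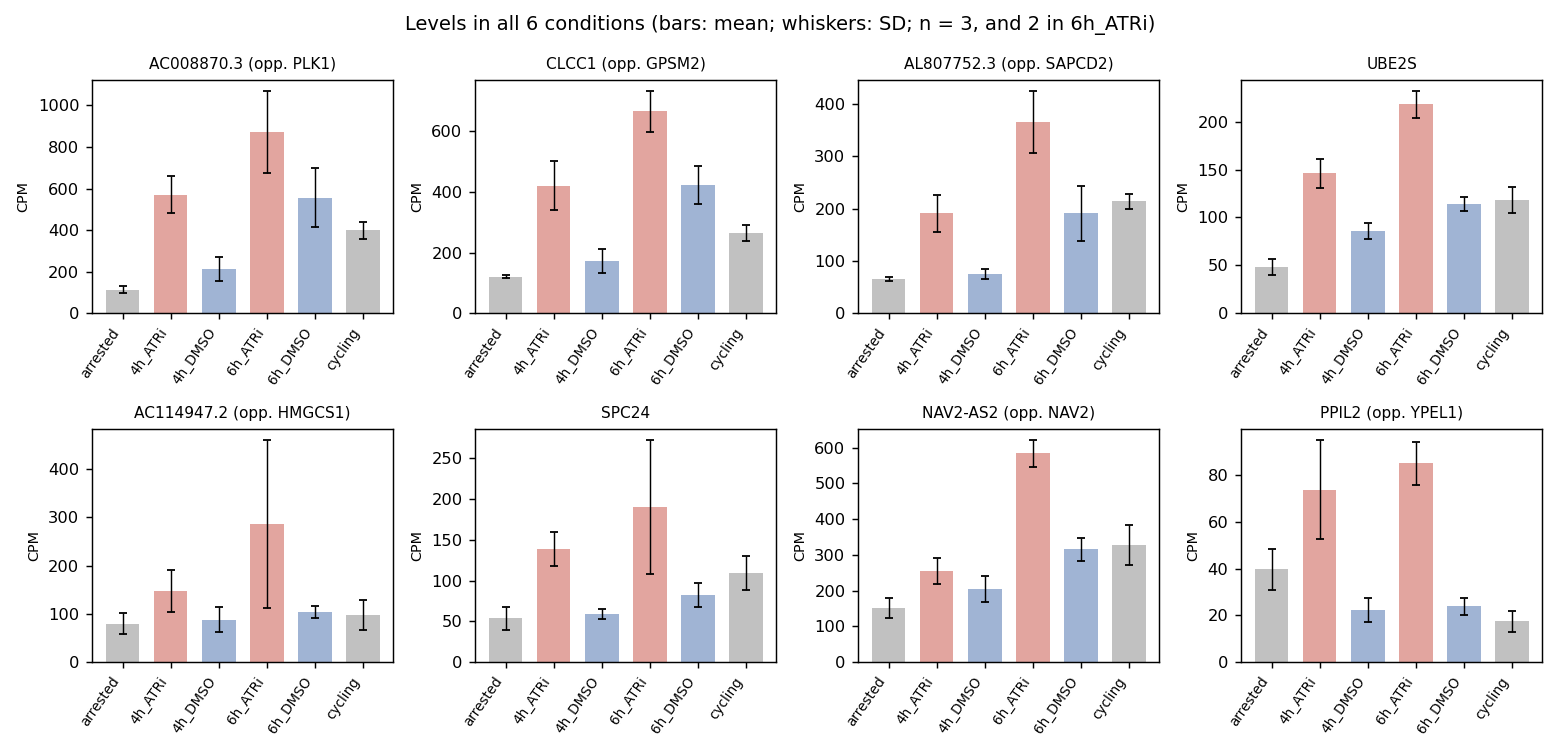
Mean CPM (bars, axes starting at 0) with SD (whiskers) in the 6 conditions for 8 features called at 6 h, with inhibitor conditions in red, DMSO conditions in blue and arrested and cycling cells in grey. The 8 were picked from the rises after their values were seen. 6h_ATRi has the highest mean in all 8 panels, and the arrested level of PPIL2 exceeds that of 4h_DMSO, 6h_DMSO and cycling cells. Not every rise has this order. TBPL1 averaged 77.2 CPM in arrested cells and 38.2 in 6h_ATRi, and CYP1B1-AS1 325 CPM in 4h_ATRi and 311 in 6h_ATRi.

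The authors' deposited table gives an adjusted p for 4485 features in this comparison and calls 15 higher and 2 lower at 0.05. Of these 17 calls in the authors' deposited table, 16 (94.1%) were among the 72 calls with the block, 22.2% of the 72. The exception in the authors' deposited table was AC027309.1, opposite to NEURL1B. All 17 calls in the authors' deposited table were also calls of DESeq2 without the block here, and 1 was a call of edgeR without it. The same libraries gave both sets of calls, so their overlap is not independent support. In the authors' deposited table PPIL2 had a log2 fold change of 1.5 (adjusted p = 1.16e-05), UBE2S 0.86 (1.98e-04), SPC24 1.02 (0.0104) and AC114947.2 1.11 (0.0256). The authors' deposited table calls IPPK (-0.74, adjusted p = 0.0406) and AC109446.3 (-0.83, adjusted p = 0.0243) lower. AC008870.3 opposite to PLK1 was not a call in the authors' deposited table (0.55, adjusted p = 0.563).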

How the data were processed

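Poly(A) RNA of RPE-1 cells was sequenced after a KAPA Stranded mRNA-Seq preparation (from the labels' protocols). A first deposited table holds the authors' raw read count of each gene in each library. A second deposited table holds log2 fold changes, and the authors' adjusted p-values stand beside them. The submitters' processing notes name TopHat, GRCh37, HTSeq and DESeq2. The sources used here give no version, annotation release or strand setting.

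Letters A, B and C in the column names were read as the 3 experiments. Of 60252 IDs, 55528 matched a symbol. Symbols and opposite-strand overlap came from a GRCh38 annotation, and no feature coordinates were used. Features were kept by edgeR's filterByExpr (minimum count 10, minimum total 15). edgeR 4.0.16 in R 4.3.3 (TMM, glmQLFit with robust estimation, glmQLFTest, two-sided) was fitted with 1 mean for each condition over all 17 libraries, with 11 residual degrees of freedom. A call is a Benjamini-Hochberg adjusted p under 0.05 over all 13510 features. The fit was tested on simulated data. The counts carry no molecular identifiers.

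Same-letter libraries of 6h_ATRi and 6h_DMSO had correlated deviations from their condition means (0.321 in A, 0.455 in B, across genes). The highest correlation with a 6h_DMSO library of another letter was 0.248 for 6h_ATRi A and -0.248 for 6h_ATRi B. The 2 inhibitor libraries deviate from their mean as mirror images, so their values are not separate evidence. The 10 same-letter pairs compared ran from 0.212 to 0.534, so the letters were taken to pair libraries. The block, with 9 residual degrees of freedom, lowered the common coefficient of variation from 0.23 to 0.119. Its values are given in the text because it changes the calls. DESeq2 1.42.0, other scaling, other filters, fewer libraries and leaving out each library were alternatives.

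Named were every call without the block, the 15 largest rises and 10 largest falls with it, called list members, a panel of 18 genes, the features opposite to these and up to 3 members a list. Members, lists, panel and rule were chosen with earlier results of these data known. So were the motifs. A gene that this rule names is not reported here.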

Additional observations from a re-analysis of the deposited data

Results flagged for a closer look

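The inhibitor response differed between 6 h and 4 h in 6 features by edgeR's interaction test with the replicate block, and in 0 without it. The 6 h minus 4 h difference in log2 fold change was -1.12 for DIS3 (adjusted p = 7.58e-06), -1.02 for AC106820.5 (adjusted p = 7.58e-06), -0.84 for AC008870.3 (adjusted p = 0.00172), -1.25 for AC005339.1 (adjusted p = 0.00172), -0.72 for CLCC1 (adjusted p = 0.0219) and -1.78 for TWIST1 (adjusted p = 0.0219). TWIST1 averaged 15.2 ± 6.23 CPM in 6h_ATRi and 29.4 ± 12.2 CPM in 6h_DMSO, against 34.7 ± 9.90 CPM in 4h_ATRi and 19.5 ± 3.06 CPM in 4h_DMSO (SD, n = 2 in 6h_ATRi and 3 in the others), so its means changed order between the times. AC005339.1 averaged 169 ± 8.42 CPM in 6h_ATRi and 101 ± 31.4 CPM in 6h_DMSO, against 106 ± 28.1 CPM in 4h_ATRi and 28.1 ± 0.947 CPM in 4h_DMSO. AC106820.5 averaged 397 ± 73.2 CPM in 6h_ATRi and 364 ± 59.2 CPM in 6h_DMSO, against 440 ± 53 CPM in 4h_ATRi and 206 ± 44.3 CPM in 4h_DMSO.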

How the results depend on the processing

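The count of features higher in 6h_ATRi, 1 without the block, was 55 with the replicate block, 17 with DESeq2, 51 with the replicate block in DESeq2, 6 with library totals, 10 without a filter, 7 with a minimum count of 30 (60 with the block), 55 with the block and RLE factors, 2 with only the 5 libraries, 63 with only the A and B pairs and the block, and 23 without experiment B. The count lower, 0 without the block, was 17 with the block, 2 with DESeq2, 17 with the block in DESeq2, 18 with the block and a minimum count of 30, 21 with the block and RLE factors, 33 with only the A and B pairs and the block, and 2 without experiment B. Leaving out 1 library gave 1 to 2 higher without the block. With the block, leaving out 6h_ATRi A, 6h_ATRi B, 6h_DMSO A, 6h_DMSO B or 6h_DMSO C gave 20, 19, 35, 32 and 37 higher and 4, 2, 10, 5 and 14 lower. The difference between the times, 0 without the block, was 6 with the block, also with RLE factors or a minimum count of 30, 3 with the block in DESeq2, 3 without experiment B, and 2, 3, 4, 5, 6 or 7 with the block and 1 library left out. Of the 72 calls at 6 h with the block, only that of PPIL2 was also made by edgeR without it. In 11 features without a call the sign turned when 1 library was left out. CDK1 ran from -0.08 to 0.45 (-0.20 and -0.05 with the block, -0.19 without experiment B), HMGCS1 from -0.13 to 1.14, CCN2 from -0.05 to 0.21, CDKN1A from -0.01 to 0.66 (0.00 with the block), RRM2 from -0.22 to 0.30 (-0.06 and -0.21 with the block), CHEK1 from -0.56 to 0.23 (0.44 and 0.20 with the block), SLC2A12 from -0.20 to 0.33 (-0.38 and -0.20 with the block, -0.06 without experiment B), AC083862.2 from -0.12 to 0.35, DAAM2 from -0.09 to 0.21 (-0.09 with the block, -0.11 with the A and B pairs and the block), ITFG2 from -0.12 to 0.35 and AL133346.1 from -0.25 to 0.25 (-0.07 and -0.03 with the block, -0.02 with library totals). The cause was not tested. List medians ran from 0.18 to 0.33 for mitotic genes, 0.10 to 0.46 for sterol genes, -0.26 to -0.03 for S phase genes and -0.41 to -0.19 for YAP and TEAD targets. Depth, with at most 2357561 counts a library, limits what can be said of genes with few counts.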
